A study of Mus musculus with 12 samples.

Results

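The genes described here are 10 members of the switch between epithelial and mesenchymal cell character: the epithelial adhesion genes Cdh1 and Epcam, the mesenchymal genes Cdh2 and Vim, and the repressor genes Snai1, Snai2, Zeb1, Zeb2, Twist1 and Twist2. They were listed by name, as known genes of this switch, among the 19938 genes that had a probe set of their own on 12 mouse whole-transcript arrays. Earlier results of these data were known when they were chosen, so their shares of calls are a description. Each of the 10 was read by 1 probe set. All values are log2 signals, already normalised across arrays by the authors, so a difference of 1 is a 2-fold change. Probe sets bind with different strength, so levels were compared between groups and not between genes.

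Epithelial cells hold together through E-cadherin, the product of Cdh1, and through junctions and adhesion molecules such as EpCAM. In the epithelial to mesenchymal transition the zinc finger repressors of the Snail and Zeb families and the helix-loop-helix factors of the Twist family shut down Cdh1 and its companions, and cells gain N-cadherin (Cdh2) and vimentin (Vim). The miR-200 family of small RNAs targets Zeb1 and Zeb2 messages, and the Zeb proteins repress the miR-200 genes in turn. Mouse embryonic stem cells carry E-cadherin, whereas endothelial, mesothelial and fibroblast cells are known for N-cadherin and vimentin.

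The arrays fell into 4 groups of 3, marked WT_EC, null_EC, null_EB and ESC in the plots in the order given here. Wild-type cells were cultured lung endothelial cells of C57Bl/6 mice, and null cells were lung endothelial cells of C57Bl/6 mice lacking CD47, a cell surface receptor for thrombospondin-1; both grew in the endothelial medium EGM2. Null embryoid bodies were clusters that CD47 null lung endothelial cells, passaged for 6 months, formed 24 to 36 h after they were moved to basal endothelial medium without serum. Embryonic stem (ES) cells were the established line V6.5, grown in DMEM with 15% serum and with LIF, the cytokine that keeps mouse ES cells undifferentiated, at 1000 IU/ml. No Cd47 mutation is given in the labels for the ES line. Between lung and ES cells, medium and form of growth thus differed with cell type and cannot be told apart from it. Between null cells and null embryoid bodies, medium, form of growth and the 6 months of passage, given only for the bodies, cannot be told apart. The labels do not say whether the 3 samples of a group came from separate animals or cultures, so p-values measure the spread between these samples, which may be technical.

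The marker genes agreed only in part with the labelled cell types. Of 10 endothelial markers, 4 in wild-type cells, 1 in null cells and 0 in null embryoid bodies had a mean above 8.01, the median of all gene values. The defining marker Pecam1 was at 6.46 to 7.56 on the 9 arrays of lung cells, and Cdh5 was at 9.10, 6.85 and 9.52 in wild-type cells but at 7.09 to 7.27 in null cells. Kdr, which encodes a VEGF receptor, went the other way, with 8.51 to 9.35 in wild-type cells, 10.52 to 10.83 in null cells and 7.26 to 7.40 in the bodies. In ES cells 3 of the 10 passed 8.01, Pecam1 at 8.84 to 8.87 among them. Mesothelial markers, by contrast, passed 8.01 in 6, 7, 6 and 1 of 7 genes in wild-type cells, null cells, null embryoid bodies and ES cells. Their summed log2 signal was 69.9 to 79.5 in wild-type cells, 83.4 to 83.5 in null cells, 75.8 to 77.3 in null embryoid bodies and 51.1 to 51.6 in ES cells. The 8 fibroblast markers summed to 83.9 to 93.3, 77.3 to 81.2, 74.2 to 75.4 and 77.0 to 77.6 in the same order. The names of the groups are therefore kept below as labels. Their part in the results that follow was not tested.

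**Figure D1:**
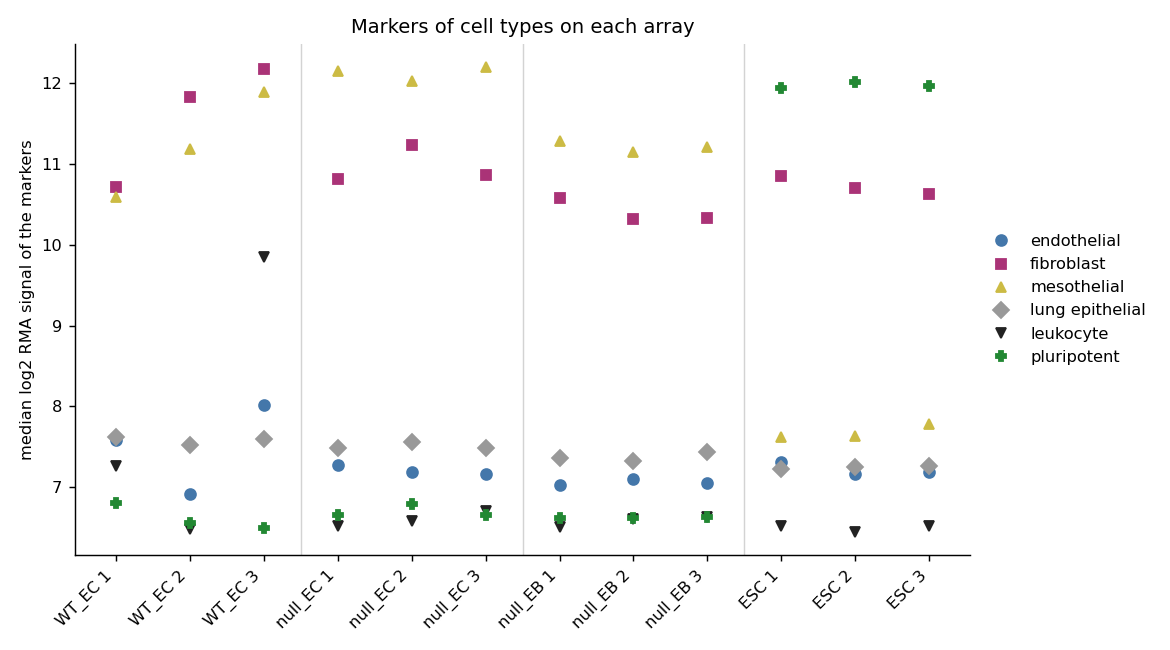
Median log2 signal of 6 cell type marker lists on each of the 12 arrays, 1 point per list and array, with the arrays ordered by group. The pluripotent list stands at 11.94 or more on the 3 ES arrays and the mesothelial list at 10.6 or more on the 9 lung cell arrays, while the leukocyte list is at 9.85 on wild-type replicate 3 alone; levels compare between arrays within a list, not between lists.

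The wild-type arrays differed most among themselves. Their pairwise correlations over all probe sets were 0.954 to 0.968, against at least 0.994 in the other groups, and leukocyte markers had a median of 9.85 on wild-type replicate 3 against 7.27 and 6.48 on replicates 1 and 2. Cd47 itself was at 12.59, 11.29 and 12.48 in wild-type cells and at 10.98, 11.11 and 11.02 in null cells, a difference of -1.09 (limma adjusted p = 0.0228). Its probe set therefore still gave signal in null cells, and wild-type replicate 2 lay near the null arrays. In ES cells Cd47 was at 11.23, 10.96 and 11.33, overlapping the null cells (0.14, adjusted p = 0.691). Which exons it reads is not given in the sources used here, so that it checks the deletion only in part. Fewer cells of a type and less RNA per cell cannot be told apart in such bulk samples.

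For Epcam and Snai1 the 250 bases before the annotated transcription start hold the 6-letter site CACCTG, or its reverse complement CAGGTG, which Snail and Zeb proteins bind through their zinc fingers. These stretches are shown because Epcam is the member with the widest range here and Snai1 encodes a repressor that can bind such sites. Sequences and positions are from RefSeq, build GRCm38.p6, and capitals mark the site on either strand. The Epcam stretch is chr17:87635729-87635978 (+), with sites at positions -187 and -19 counted back from the start; the Snai1 stretch is chr2:167537945-167538194 (+), with a site at -126.
Epcam: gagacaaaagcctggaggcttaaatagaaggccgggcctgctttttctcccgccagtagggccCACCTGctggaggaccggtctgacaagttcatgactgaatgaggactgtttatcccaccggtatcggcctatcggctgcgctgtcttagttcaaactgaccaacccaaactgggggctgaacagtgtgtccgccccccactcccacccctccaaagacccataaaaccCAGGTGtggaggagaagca
Snai1: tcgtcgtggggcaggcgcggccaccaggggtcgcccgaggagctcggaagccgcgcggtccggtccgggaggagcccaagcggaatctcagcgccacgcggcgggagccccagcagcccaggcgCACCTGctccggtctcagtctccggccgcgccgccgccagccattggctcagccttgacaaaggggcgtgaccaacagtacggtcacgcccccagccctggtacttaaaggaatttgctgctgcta
No stretch was available for Cdh1, Cdh2, Snai2 and Zeb1, so the site was not sought in these genes. For the other 6 of the 10 members the table held stretches, in 9 windows because some genes have several starts. The site stood in 2 of these 9 windows, 22.2%, and in 17.2% of all 32851 windows of the same length. The windows of Twist1, Twist2, Vim and Zeb2 held no such letters. Such a match is a description of the letters, not of binding.

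ES cells stood apart from all 3 kinds of lung cells in these genes. Cdh1 and Epcam rose at least 20.0-fold, and Cdh2, Zeb1, Zeb2, Twist1 and Vim fell in each of the 3 comparisons, by amounts that ran from 1.16-fold for Vim to 8.98-fold for Cdh2. Against null cells 2 of 10 members were called higher and 7 lower (limma on all 12 arrays, Benjamini-Hochberg adjusted p below 0.05 over 19938 genes), where 22.9% of all genes were called higher and 25.1% lower. The share of members called higher was thus near that of all genes, and the share called lower was above it. Against null embryoid bodies 3 were called higher and 6 lower, where the shares of all genes were 21.8% and 23.0%. Against wild-type cells 2 were called higher and 6 lower, where they were 25.4% and 21.7%. The median difference of the 10 members was -0.36, -0.60 and -0.76, beside -0.09, -0.08 and -0.07 for all genes. The 3 comparisons share the ES arrays and are therefore not independent of each other.

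Among the lung cells the epithelial pair stayed at low signal and the repressors made up all the calls. From wild-type to null cells 0 members were called higher and 3 lower, Snai1, Zeb1 and Zeb2, where 8.12% and 5.00% of all genes were called higher and lower. From null cells to null embryoid bodies Snai2 rose and Twist2 fell, 1 member each way, where the shares of all genes were 2.90% and 2.50%. Between wild-type cells and null embryoid bodies 0 members were called higher and 4 lower, Snai1, Zeb1, Zeb2 and Twist2, where the shares were 12.3% and 6.19%. At an unadjusted p below 0.05 the limma fit gave 4 members from wild-type to null cells, with Cdh1 as the fourth, and 5 between wild-type cells and bodies, with Snai2 as the fifth. The median difference of the members in these comparisons was -0.21, 0.01 and -0.17, beside 0.03, -0.01 and 0.02 for all genes.

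The split of calls into higher and lower over all genes depended on the scaling. With each array shifted to an equal median of 16 measured housekeeping genes, the median of all genes moved by -0.16 between wild-type and null cells, by 0.20 between null cells and null embryoid bodies, by -0.23 between null embryoid bodies and ES cells and by -0.19 between wild-type and ES cells. The percentage of called genes that were higher then went from 61.9 to 31.9, from 53.7 to 89.0, from 48.6 to 25.0 and from 53.9 to 32.3 in these comparisons. Small member differences below are to be read relative to such shifts, and where a member call ended with this scaling its paragraph says so.

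**Figure D2:**
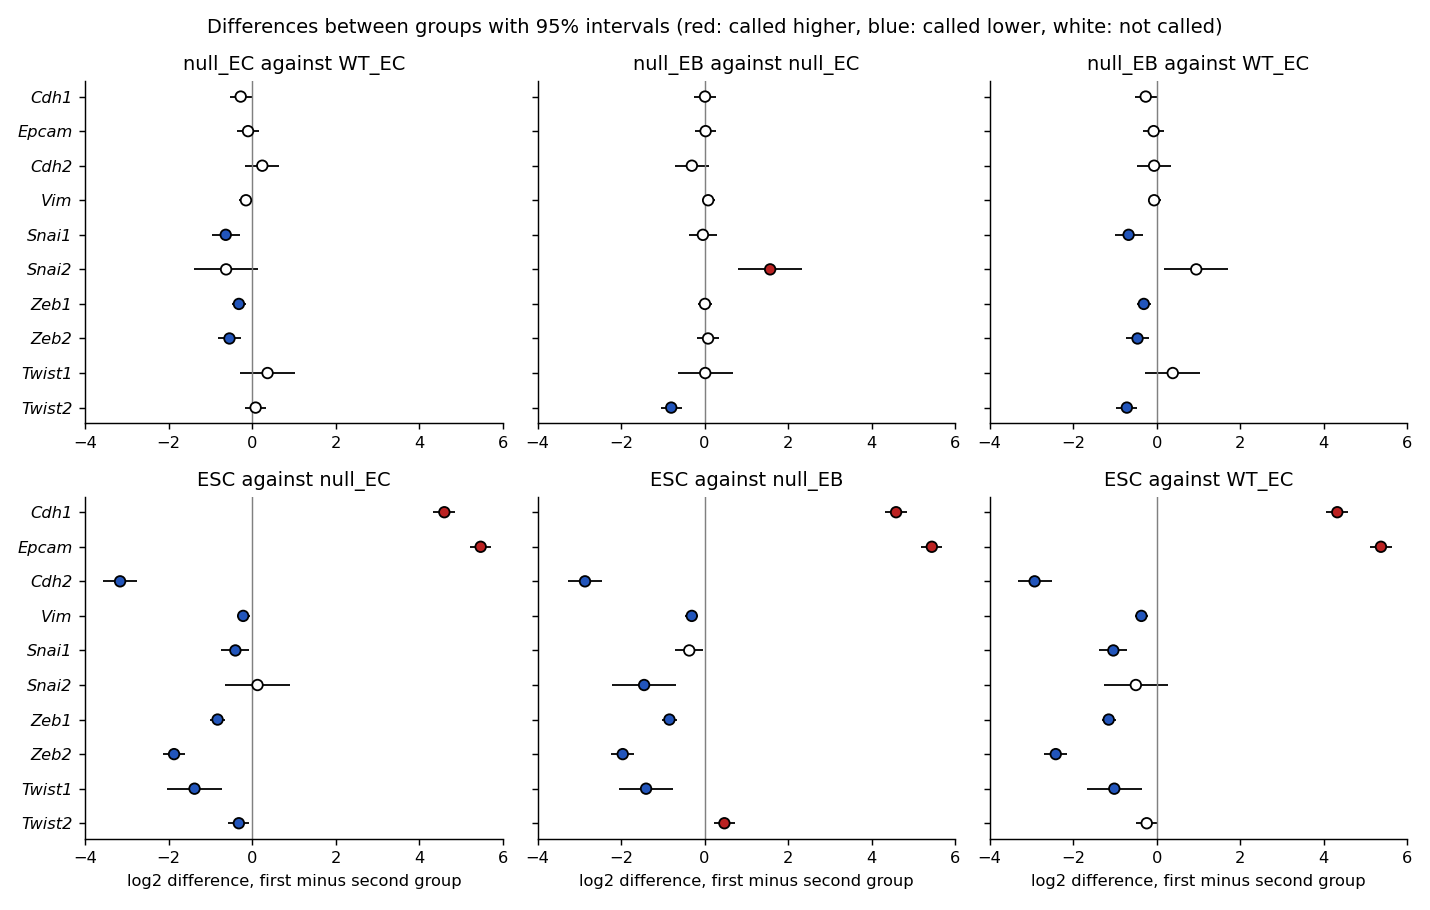
Log2 differences of the 10 members in the 6 comparisons, 1 panel each, as points with 95% confidence intervals from the limma fit to 12 arrays; red marks genes called higher in the group named first, blue genes called lower and white those that did not pass the threshold. Cdh1 and Epcam stand between 4.32 and 5.47 in the 3 comparisons of ES cells and within 0.28 of 0 in the others.

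Cdh1 encodes E-cadherin, the calcium-dependent adhesion molecule of epithelial adherens junctions. Its log2 signal was 7.27, 7.77 and 7.29 in wild-type cells, 7.25, 7.09 and 7.17 in null cells, 7.12, 7.15 and 7.27 in null embryoid bodies, and 11.80, 11.73 and 11.78 in ES cells. All 9 arrays of lung cells lay below the median of all gene values, and the 3 ES arrays lay at least 3.96 above them. The order of the means was ES cells, wild-type cells (7.45 ± 0.284, SD, n = 3), null embryoid bodies (7.18 ± 0.0784) and null cells (7.17 ± 0.0798), and the last pair overlapped. Cdh1 was 24.3-fold higher in ES cells than in null cells (log2 difference 4.60, SE 0.121, limma adjusted p = 3.71e-10). Against null embryoid bodies the difference was 4.59 (adjusted p = 4.17e-10) and against wild-type cells 4.32 (adjusted p = 6.89e-10). Among the lung cells the differences of -0.28, 0.01 and -0.26 missed the threshold (adjusted p = 0.174, 0.988 and 0.165), although the wild-type arrays did not overlap with the null cells or the bodies; with the housekeeping scaling the first became -0.43 (adjusted p = 0.0328). Without wild-type replicate 2, the highest of the lung cell arrays, the differences from wild-type cells were -0.11 for null cells and -0.10 for the bodies and did not pass.

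Epcam encodes a cell surface adhesion molecule of simple epithelia that ES cells also carry. It was at 6.60, 6.28 and 6.59 in wild-type cells, at 6.25, 6.35 and 6.56 in null cells, at 6.43, 6.33 and 6.48 in null embryoid bodies, and at 11.97, 11.71 and 11.90 in ES cells. The 9 lung cell arrays overlapped fully and were all of low signal, and the ES arrays were all far above them. Epcam had the widest difference of the 10 members, 5.47 between ES and null cells (44.4-fold, SE 0.115, limma adjusted p = 8.08e-11). The lung cell groups differed by at most 0.10 in their means, with adjusted p from 0.652 to 0.974. The 95% interval from null cells to null embryoid bodies was -0.23 to 0.28 for Epcam and -0.25 to 0.28 for Cdh1.

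**Figure D3:**
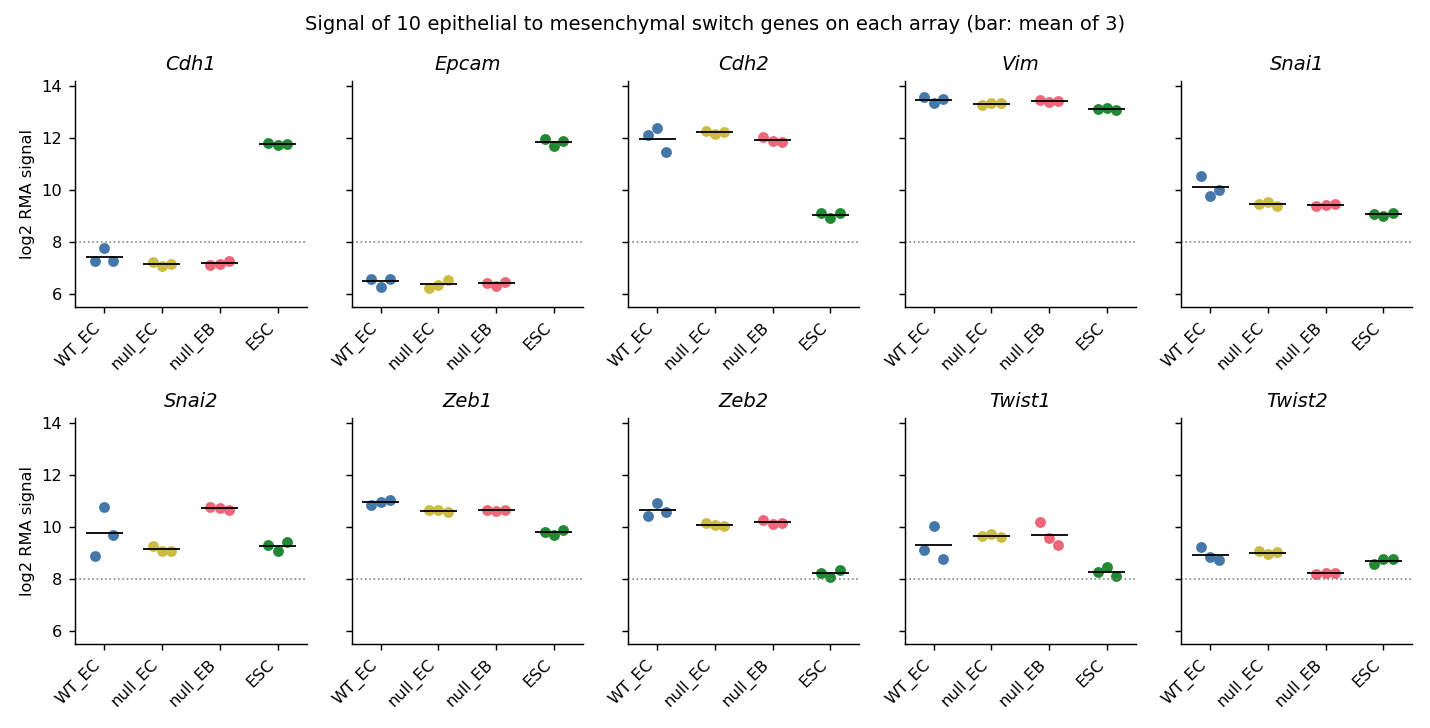
Log2 signal of the 10 members on the 12 arrays, 1 panel per gene, with a point per array, a bar at each group mean of 3 arrays and a dotted line at 8.01, the median of all gene values. Cdh1 and Epcam lie below the line in the 3 lung cell groups and between 11.71 and 11.97 in ES cells, whereas Vim lies between 13.1 and 13.6 on every array.

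Cdh2 encodes N-cadherin, the adhesion molecule of mesenchymal, neural and mesothelial cells. Its log2 signal was 12.11, 12.38 and 11.46 in wild-type cells, 12.27, 12.18 and 12.23 in null cells, 12.03, 11.89 and 11.84 in null embryoid bodies, and 9.11, 8.93 and 9.13 in ES cells. The ES arrays were lowest by 2.33 or more, and they remained above the median of all gene values. Cdh2 was 8.98-fold lower in ES cells than in null cells (log2 difference -3.17, SE 0.184, limma adjusted p = 1.21e-07), and the difference was -2.86 against null embryoid bodies and -2.93 against wild-type cells (adjusted p = 3.13e-07 and 2.93e-07). The bodies lay below the null cells on every array, by 0.30 in the mean, without passing the threshold (adjusted p = 0.483). That difference was called lower when only the 6 arrays compared were fitted (adjusted p = 0.00615), with array weights by group (0.00891) and without the wild-type arrays (0.00797), all of which leave out or down-weight the wild-type arrays with their spread of 0.472. With the housekeeping scaling the same difference shrank to -0.11 and was not called. Wild-type cells (11.98) stood between null cells (12.22) and null embryoid bodies (11.92) in the order of the means and overlapped with both.

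The difference Cdh1 minus Cdh2 was also taken on each array. It holds the unequal binding of the 2 probe sets, so only its change between groups was read. From null cells, wild-type cells and null embryoid bodies to ES cells it moved by 7.77, 7.25 and 7.45 towards Cdh1. Within the lung cells the group means of this difference differed by at most 0.52, and its SD was 0.337 in wild-type cells, 0.0332 in null cells, 0.169 in null embryoid bodies and 0.0850 in ES cells.

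Vim encodes vimentin, the intermediate filament protein of mesenchymal cells. It was at 13.58, 13.37 and 13.50 in wild-type cells, at 13.28, 13.37 and 13.34 in null cells, at 13.45, 13.38 and 13.42 in null embryoid bodies, and at 13.11, 13.15 and 13.08 in ES cells. The ES arrays were the lowest, but the group means spanned 0.37 in all, the narrowest range of the 10 members. Vim fell by 0.37 from wild-type to ES cells (limma adjusted p = 0.00126) and by 0.31 from null embryoid bodies to ES cells (adjusted p = 0.00431). The difference of -0.22 from null cells (SE 0.0705, adjusted p = 0.0252) lost its call with the housekeeping scaling (adjusted p = 0.0844) and without null replicates 2 or 3 or ES replicates 1 or 3 (0.0636 to 0.0866). Among the lung cells Vim differed by -0.15, 0.09 and -0.06 and did not pass the test (adjusted p = 0.205, 0.650 and 0.606), the first being called without wild-type replicate 2 (-0.21, adjusted p = 0.0387). Of the 8 fibroblast markers 6 had a mean above 8.01 in ES cells. Postn was at 11.48 to 11.73 there, above its 6.19 to 11.20 in lung cells. Dcn was at 10.67 to 11.18, below its 13.17 to 13.66 in lung cells. Dpt at 5.89 to 6.07 and Lum at 7.05 to 7.14 were of low signal in ES cells. These lay within their lung cell ranges of 5.48 to 9.57 and 5.62 to 10.58. The part of fibroblast markers in the Vim and Cdh2 levels of these arrays was not tested.

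Snai1 encodes Snail, a direct repressor of Cdh1. Its log2 signal was 10.54, 9.77 and 10.02 in wild-type cells, 9.49, 9.54 and 9.41 in null cells, 9.40, 9.44 and 9.47 in null embryoid bodies, and 9.10, 9.01 and 9.11 in ES cells. The wild-type arrays were highest, the ES arrays lowest, and null cells and bodies overlapped between them. Snai1 fell by 1.04 from wild-type to ES cells (2.06-fold, SE 0.151, limma adjusted p = 1.80e-04), by 0.64 from wild-type to null cells (adjusted p = 0.0187) and by 0.67 from wild-type cells to null embryoid bodies (adjusted p = 0.0110). The last 2 calls were lost when only the 6 arrays compared were fitted (adjusted p = 0.173 and 0.123), and the first of them also without null replicate 1 or 3 (0.0653 and 0.0750). From null cells to ES cells the difference was -0.40 (adjusted p = 0.0465), and this call ended in 12 of 21 alternatives, with adjusted p up to 0.123, among them the housekeeping scaling (0.0702) and leaving out any single null, embryoid body or ES array. From null embryoid bodies to ES cells it was -0.37 and missed the threshold (adjusted p = 0.0714), and it passed in 6 alternatives, among them without wild-type replicate 1 or 2 (0.00170 and 0.0186). The difference of -0.04 between null cells and bodies (adjusted p = 0.969) changed sign to 0.16 with the housekeeping scaling.

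Snai2 encodes Slug, the second Snail factor, which marks migrating neural crest and mesenchymal cells. It was at 8.88, 10.77 and 9.68 in wild-type cells, at 9.27, 9.09 and 9.09 in null cells, at 10.78, 10.72 and 10.65 in null embryoid bodies, and at 9.30, 9.08 and 9.44 in ES cells. The 3 embryoid body arrays were above all null and ES arrays, while the wild-type arrays alone spanned almost the whole range, with an SD of 0.949. Snai2 rose 2.97-fold from null cells to null embryoid bodies (log2 difference 1.57, SE 0.348, limma adjusted p = 0.0270). This call was lost when any single null or embryoid body array was left out (log2 difference 1.54 to 1.63, adjusted p = 0.0773 to 0.103), and its adjusted p was 5.52e-08 without the wild-type arrays, an alternative chosen after seeing the data. Snai2 fell by 1.45 from null embryoid bodies to ES cells (2.73-fold, adjusted p = 0.00547). Null cells and ES cells overlapped (0.13, adjusted p = 0.787).

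The comparisons of Snai2 with wild-type cells turned on single wild-type arrays. The differences were -0.63 for null cells, 0.95 for null embryoid bodies and -0.50 for ES cells, and all 3 missed the threshold (limma adjusted p = 0.293, 0.0868 and 0.255). Without wild-type replicate 1 null cells were lower by -1.07 (adjusted p = 0.0131) and ES cells by -0.95 (0.00815), and the bodies were higher by 0.50 without passing. Without wild-type replicate 2 null cells differed by -0.13 and ES cells by -0.0041 without passing, whereas null embryoid bodies were higher by 1.44 (adjusted p = 0.000317), and with the housekeeping scaling by 0.99 (0.0456).

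Zeb1 encodes a 2-handed zinc finger repressor of Cdh1 and of the miR-200 genes. Its log2 signal was 10.84, 10.95 and 11.05 in wild-type cells, 10.64, 10.66 and 10.57 in null cells, 10.63, 10.62 and 10.65 in null embryoid bodies, and 9.81, 9.68 and 9.89 in ES cells. The ES arrays were all lower than the lung cell arrays, the wild-type arrays were highest, and null cells and bodies overlapped (0.01, limma adjusted p = 0.985). Zeb1 fell by 0.83 from null cells (SE 0.0769, adjusted p = 4.98e-06), by 0.84 from null embryoid bodies (adjusted p = 5.08e-06) and by 1.15 from wild-type cells (adjusted p = 4.67e-07) to ES cells. The smaller differences of -0.32 in null cells and -0.31 in null embryoid bodies against wild-type cells passed (adjusted p = 0.0196 and 0.0179). Both calls ended with only the 6 arrays compared, with array weights by group (adjusted p = 0.128 to 0.212) and without any single null array or any single embryoid body array (0.0506 to 0.0866), and the second also with the housekeeping scaling (0.118).

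Zeb2 encodes the second Zeb repressor, also known from neural crest cells. It was at 10.42, 10.93 and 10.57 in wild-type cells, at 10.15, 10.09 and 10.04 in null cells, at 10.27, 10.13 and 10.14 in null embryoid bodies, and at 8.25, 8.07 and 8.34 in ES cells. The ES arrays were at least 1.70 below every lung cell array. Zeb2 fell by 1.87 from null cells (3.66-fold, SE 0.123, limma adjusted p = 3.17e-07), by 1.96 from null embryoid bodies (adjusted p = 2.70e-07) and by 2.42 from wild-type cells (5.35-fold, adjusted p = 6.01e-08) to ES cells, the widest drop of the 6 repressors in each of the 3 comparisons. Wild-type cells stood above null cells by 0.55 (adjusted p = 0.0144) and above null embryoid bodies by 0.46 (adjusted p = 0.0254), and null cells and bodies overlapped (0.09, adjusted p = 0.858). The wild-type calls ended with only the 6 arrays compared and with array weights by group (adjusted p = 0.0714 to 0.158), and without replicate 2 or 3 of the null cells (0.0505 and 0.0613) or of the bodies (0.0922 and 0.0845).

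Twist1 encodes a helix-loop-helix factor of cranial and limb mesenchyme. Its log2 signal was 9.12, 10.03 and 8.76 in wild-type cells, 9.66, 9.75 and 9.60 in null cells, 10.20, 9.57 and 9.29 in null embryoid bodies, and 8.25, 8.47 and 8.13 in ES cells. The ES arrays were lowest, and the 3 lung cell groups overlapped, with SDs of 0.656 in wild-type cells and 0.467 in the bodies. Twist1 fell by 1.38 from null cells (SE 0.297, limma adjusted p = 0.00256), by 1.40 from null embryoid bodies (adjusted p = 0.00252) and by 1.02 from wild-type cells (adjusted p = 0.0157) to ES cells. The last call ended with only the 6 arrays compared (adjusted p = 0.0549), with array weights by group (0.0785) and without ES replicate 3 (0.0548). Among the lung cells Twist1 differed by 0.37, 0.02 and 0.38 and did not pass (adjusted p = 0.498, 0.994 and 0.438); without wild-type replicate 2 null cells stood above wild-type cells by 0.73 (adjusted p = 0.0347) and the bodies by 0.75 (0.0274), and without wild-type replicate 3 the differences were 0.094 and 0.11 and did not pass.

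Twist2 encodes the related factor Dermo1, known from dermis. It was at 9.23, 8.83 and 8.75 in wild-type cells, at 9.06, 8.97 and 9.02 in null cells, at 8.19, 8.22 and 8.25 in null embryoid bodies, and at 8.57, 8.76 and 8.75 in ES cells. The embryoid body arrays were the lowest 3 of the 12, which held for no other repressor. Twist2 fell by 0.80 from null cells to null embryoid bodies (1.74-fold, SE 0.114, limma adjusted p = 0.00282) and was lower by -0.72 in the bodies than in wild-type cells (adjusted p = 0.00171). Both calls held in every alternative run, with limma adjusted p from 5.38e-07 to 0.0188 for the first and from 4.52e-04 to 0.0483 for the second. Twist2 rose by 0.48 from null embryoid bodies to ES cells (adjusted p = 0.00530), a call that ended with the housekeeping scaling (0.24, adjusted p = 0.145).

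The other Twist2 differences were small. ES cells were below null cells by -0.32 (limma adjusted p = 0.0374), a call that ended in 11 of 21 alternatives, among them the housekeeping scaling (0.0594) and leaving out any single null, embryoid body or ES array, with adjusted p up to 0.133. ES cells differed from wild-type cells by -0.24 (adjusted p = 0.105), which passed without wild-type replicate 3 (-0.34, adjusted p = 0.0312) and with the housekeeping scaling (-0.43, 0.0220). Null and wild-type cells overlapped, and their difference of 0.08 (adjusted p = 0.731) changed sign to -0.08 with that scaling.

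Genes that work with the members were followed in 9 lists, each read against the shares and medians of all genes given above. Like the members, they were chosen with earlier results of these data known. The junction list holds proteins of tight junctions and desmosomes and of epithelial sorting. Of its 22 measured genes, 14 were called higher and 2 lower in ES cells against null embryoid bodies, with a median difference of 1.15 beside -0.08 for all genes. Cldn6, a claudin of embryonic epithelia, was at 11.37 ± 0.135 in ES cells and 6.98 ± 0.205 in the bodies (4.39, limma adjusted p = 1.50e-09), Rab25, a small GTPase of epithelial recycling, differed by 3.13 (adjusted p = 6.46e-09), and the tight junction protein gene Ocln by 3.05 (adjusted p = 1.35e-08). Cxadr and F11r, both immunoglobulin-type junction proteins, went the other way by -3.08 and -0.83 (adjusted p = 8.48e-06 and 0.00403). Counts were 14 higher and 2 lower against null cells and 15 and 2 against wild-type cells.

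Within the lung cells most junction genes did not pass the test. From wild-type to null cells 6 of the 22 genes were called higher and 0 lower, with a median of 0.03, equal to that of all genes to 2 decimals. Cdh3, which encodes P-cadherin, stood at 10.58 ± 0.158 in null and 9.19 ± 1.04 in wild-type cells (1.40, limma adjusted p = 0.0405), F11r was higher by 1.17 (adjusted p = 0.00233) and Cxadr by 1.05 (adjusted p = 0.0428). Without any single null, embryoid body or ES array the Cdh3 and Cxadr calls ended (adjusted p = 0.0524 to 0.133), as they did with the housekeeping scaling and the replicate block. The Cdh3, Cxadr and F11r calls all ended when only the 6 arrays compared were fitted (limma adjusted p = 0.0717 for F11r). From null cells to null embryoid bodies only F11r passed, lower by -0.96 (adjusted p = 0.0155, but 0.0538 to 0.0716 without any single null array or embryoid body replicate 2 or 3), and between wild-type cells and the bodies 0 of the 22 genes passed with limma, where 2 were higher and 2 lower at an unadjusted p below 0.05.

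Of 12 epithelial splicing and transcription factors, 7 were called higher and 0 lower in ES cells against null embryoid bodies. Esrp1, which sets epithelial splice forms, was at 11.11 ± 0.0155 in ES cells and 6.27 ± 0.0399 in the bodies, a 28.6-fold difference (4.84, limma adjusted p = 1.47e-10). Klf5 differed by 1.87 and Elf3 by 1.75 (adjusted p = 1.90e-07 and 6.88e-07). The relative Esrp2 took another course and was higher in null cells (8.93 ± 0.0432) than in wild-type cells (7.90 ± 0.312), by 1.03 (adjusted p = 4.36e-04). It was the only gene of the list called between these cells, and from null cells to the bodies 0 passed, with 0 higher and 4 lower at an unadjusted p below 0.05. Of 9 keratin and protease genes, 7 were called higher and 1 lower in ES cells against the bodies, with Krt18 at 11.34 ± 0.386 in ES cells and 7.34 ± 0.250 in the bodies, and the membrane protease genes St14 9.02-fold and Prss8 6.19-fold above the bodies (adjusted p = 1.54e-04, 9.86e-09 and 3.17e-09), and Krt19 below them by -1.11 (adjusted p = 0.00385). Against null cells and against wild-type cells 5 were called higher and 1 lower. From null cells to the bodies 0 of these 9 genes passed, with 0 higher and 3 lower at an unadjusted p below 0.05.

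**Figure D4:**
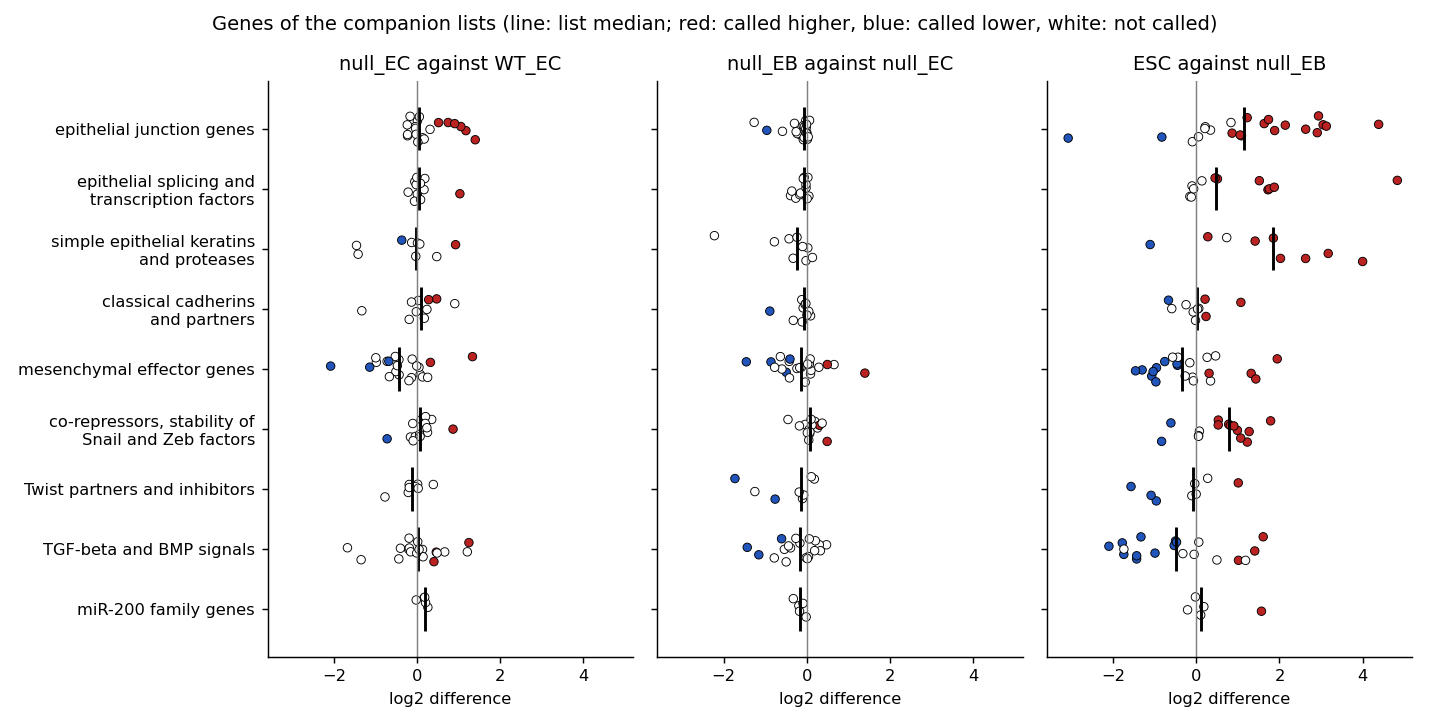
Log2 differences of the measured genes of 9 companion lists, 1 point per gene and a line at each list's median, in null cells against wild-type cells, null embryoid bodies against null cells and ES cells against null embryoid bodies. The medians of the junction list (1.15) and of the keratin and protease list (1.85) stand above 1 in the last comparison, and that of the TGF-beta and BMP list stands at -0.50.

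The site CACCTG or CAGGTG stood in 12 of the 20 upstream windows found for 15 junction genes (60%), in 5 of 6 windows of keratin and protease genes (83.3%) and in 3 of 7 windows of the splicing and transcription factors (42.9%), where all windows gave 17.2%. It stood in 0 of 10 windows of mesenchymal effector genes, 0 of 17 of the co-repressors, 0 of 8 of the Twist partners, 1 of 12 of the TGF-beta and BMP genes (8.33%) and 1 of 7 of the cadherins and their partners (14.3%). Windows of a gene with several starts can overlap, and the lists were compared with all windows as a description only. A pair of stretches that end at the start site is printed because the sites lie close together in them, from Rab25 at chr3:88548280-88548379 (-) and Ap1m2, a sorting adaptor gene, at chr9:21312334-21312433 (-).
Rab25: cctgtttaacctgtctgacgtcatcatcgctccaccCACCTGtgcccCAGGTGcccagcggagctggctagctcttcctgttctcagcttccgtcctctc
Ap1m2: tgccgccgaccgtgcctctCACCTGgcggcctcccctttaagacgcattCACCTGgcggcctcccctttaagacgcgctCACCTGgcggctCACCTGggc
Rab25 was among the 3 junction genes with the largest increase in ES cells, and Ap1m2 was higher there by 2.63 than in the bodies. F11r, whose window holds a site at -122, was lower in ES cells than in the bodies, by -0.83. Genes with the site thus went both ways, and whether it bears on these levels was not tested.

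The other cadherins and their catenin partners went different ways. Of these 10 genes 3 were called higher and 1 lower in ES cells against null embryoid bodies, with a median of 0.00, against null cells 2 and 2, and against wild-type cells 3 and 3. Cdh13, a cadherin without a cytoplasmic tail, was higher in ES cells than in null cells, bodies and wild-type cells, by 0.95, 1.07 and 0.76 (limma adjusted p = 2.52e-05, 1.13e-05 and 1.60e-04), with every group mean below 8.01. Cdh6 was lower than in null cells by -0.92 (adjusted p = 0.0281, but 0.0589 to 0.0825 without any single null array or ES replicate 1 or 2) and than in wild-type cells by -1.05 (0.0148, but 0.0503 without ES replicate 1, and not called in a fit of only the 6 arrays compared). Cdh11, a cadherin of mesenchymal cells, fell in turn from null cells (12.77 ± 0.0276) to the bodies (11.88 ± 0.218) and to ES cells (11.21 ± 0.157), by 0.89 and 0.67 (limma adjusted p = 0.00271 and 0.00110), and was lower in ES cells than in null and wild-type cells by -1.56 and -1.09 (1.64e-06 and 3.10e-05). Its gain of 0.47 from wild-type to null cells passed (adjusted p = 0.0325) but not without wild-type replicate 1 or 3, any single null array or ES replicate 1 (0.0524 to 0.109). This gain also lost its call with the housekeeping scaling and with only the 6 arrays compared. Ctnnb1, which encodes beta-catenin, was higher in ES cells than in the bodies by 0.21 (adjusted p = 0.0442), and this turned to -0.02 with the housekeeping scaling. The Ctnnb1 call also ended without any single null or ES array or embryoid body replicate 2 or 3 (adjusted p = 0.0622 to 0.148).

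Mesenchymal effector genes were called lower in ES cells more often than higher. Against null embryoid bodies 9 of 22 were called lower and 4 higher, with a median of -0.36. Ncam1 was lower by -1.46, Axl, a receptor kinase, by -1.30 and Col3a1, a fibrillar collagen gene, by -1.07 (limma adjusted p = 2.22e-04, 1.83e-06 and 0.0204), the last not passing without embryoid body replicate 1 or any single ES array (0.0510 to 0.0682). Thy1 was higher by 1.95, the mesenchymal homeobox gene Prrx1 by 1.43 and the gelatinase gene Mmp2 by 1.32 (adjusted p = 0.00708, 1.76e-06 and 0.00323). Thy1, Prrx1 and Mmp2 are known from fibroblasts, whose markers were high in part and low in part in ES cells, as given with Vim; the part of such cells in these values was not tested. Against null cells 10 were called lower and 4 higher, and against wild-type cells 11 lower and 1 higher.

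In the lung cells the effector genes moved both ways. From wild-type to null cells Prrx1 fell 4.24-fold, from 11.54 ± 0.0644 to 9.46 ± 0.250 (-2.08, limma adjusted p = 4.74e-06), and Pdgfrb by 1.14 (adjusted p = 0.0117, but 0.0577 without null replicate 1), while Ncam1 rose by 1.33 (adjusted p = 0.00258). With only the 6 arrays compared the Pdgfrb and Ncam1 calls ended (limma adjusted p = 0.143 and 0.0717), while that of Prrx1 held. In all 3 genes were called lower and 2 higher, with a median of -0.44. From null cells to null embryoid bodies 4 were called lower and 2 higher, with a median of -0.15. Mmp2 fell by 1.46 (adjusted p = 0.0166), Col1a1 by 0.86 (adjusted p = 0.0421) and Sparc by 0.49 (adjusted p = 0.0186), whereas the integrin gene Itgb3 rose by 1.40 (adjusted p = 0.00541). Replicates 2 and 3 of null cells and of bodies each ended the Mmp2 and Sparc calls when left out (0.0620 to 0.0956), and any single null, embryoid body or ES array that of Col1a1 (0.0512 to 0.178). The housekeeping scaling also ended the Sparc call (limma adjusted p = 0.157) and the Col1a1 call. Between wild-type cells and the bodies 6 were called lower and 2 higher.

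The list of co-repressors and stability regulators holds proteins through which Snail and Zeb factors act or by which Snail is degraded. Of its 15 genes 10 were called higher and 2 lower in ES cells against null embryoid bodies, with a median of 0.78. Ezh2, the histone methyltransferase of Polycomb, was higher by 1.79, the LIM protein gene Ajuba by 1.27 and Ctbp2 by 1.23 (limma adjusted p = 1.40e-07, 5.01e-05 and 5.75e-06). Gsk3b, a kinase that marks Snail for degradation, was lower by -0.84 and Ctbp1 by -0.61 (adjusted p = 5.31e-06 and 1.55e-04). Thus the co-repressor genes Ctbp1 and Ctbp2 differed in opposite directions, as they did against null cells (-0.54 and 1.18) and wild-type cells (-0.30 and 1.09), the Ctbp1 value of -0.30 not passing without ES replicate 1 or 3 (adjusted p = 0.0521 and 0.0573). Ezh2 was lower in null than in wild-type cells (-0.72, adjusted p = 0.00108) and higher in the bodies than in null cells (0.49, adjusted p = 0.0215, but 0.0601 to 0.0993 without null replicate 1 or 3 or any single embryoid body array). From wild-type to null cells 1 gene was called higher and 1 lower, from null cells to the bodies 2 higher, and from wild-type cells to the bodies 6 higher and 1 lower.

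The Id proteins bind the E-protein partners of Twist factors and keep them from DNA. Id2 fell from 11.25 ± 0.0112 in null cells to 9.52 ± 0.315 in null embryoid bodies (-1.73, limma adjusted p = 0.0129) and Id1 by 0.76 (adjusted p = 0.0235), beside the Twist2 and Twist1 differences of -0.80 and 0.02 in the same comparison. Without any single null array or embryoid body replicate 2 or 3 the Id2 call ended (adjusted p = 0.0533 to 0.0693), and without any single null or embryoid body array that of Id1 (0.0712 to 0.0956). This Id1 call also ended with the housekeeping scaling. In ES cells against the bodies Id3 was lower by -1.57, Id1 by -1.09 and the E-protein gene Tcf12 by -0.96 (adjusted p = 0.00496, 2.27e-04 and 1.82e-05), and Id2 was higher by 1.01 (adjusted p = 0.0276, but 0.0681 to 0.0912 without embryoid body replicate 2 or 3 or ES replicate 1 or 3). These made up 3 genes called lower and 1 higher of 8, and the call of Id2 as higher also ended with the housekeeping scaling. Counts were 0 higher and 3 lower against null cells, and 0 and 4 against wild-type cells.

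TGF-beta signals induce the Snail and Zeb genes in many epithelia, and BMP signals often oppose them. Of 19 genes 10 were called lower and 3 higher in ES cells against null embryoid bodies, with a median of -0.50. The receptor genes Tgfbr2 and Tgfbr3 were lower by -2.10 and -1.78 and the ligand gene Tgfb1 by -1.75 (limma adjusted p = 3.31e-07, 1.97e-06 and 9.50e-05). Eng, a co-receptor gene, was higher by 1.61, Bmp7 by 1.41 and Skil, which restrains Smad proteins, by 1.01 (adjusted p = 0.0461, 4.51e-06 and 3.15e-05), the Eng call ending without any single null, embryoid body or ES array (0.0628 to 0.112). Against null cells 11 were called lower and 3 higher, and against wild-type cells 9 and 3. From null cells to null embryoid bodies 3 inhibitors of the pathway fell and 0 genes rose, with Smad6 at -1.43, Smad7 at -1.15 and Skil at -0.61 (adjusted p = 0.00891, 0.0470 and 0.0137). The Smad7 call ended without any single null, embryoid body or ES array (0.0731 to 0.162), that of Skil without null replicate 1 or 2 or embryoid body replicate 2 or 3 (0.0519 to 0.0672), and that of Smad6 without embryoid body replicate 2 (0.0529). Smad6 and Skil had been higher in null than in wild-type cells, by 1.24 and 0.46 (adjusted p = 0.00874 and 0.0257), the Skil call ending without any single null array (0.0542 to 0.111). Both calls ended when only the 6 arrays compared were fitted (limma adjusted p = 0.119 for Smad6). With the housekeeping scaling the Eng call, the Smad7 call and the Skil calls among the lung cells ended.

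The miR-200 family is shown by sequence because its seed, bases 2 to 8 in capitals, sets which messages it can pair with. The 5 mature forms share 2 seeds that differ at 1 base, and miR-205, the further RNA on the list, targets Zeb messages by another. Sequences are those of RefSeq.
mmu-miR-200b-3p: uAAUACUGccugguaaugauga
mmu-miR-200c-3p: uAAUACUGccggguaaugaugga
mmu-miR-429-3p: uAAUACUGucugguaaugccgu
mmu-miR-200a-3p: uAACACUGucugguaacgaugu
mmu-miR-141-3p: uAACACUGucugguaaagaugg
Of the 5 genes with a probe set of their own, Mir200b was at 5.45, 5.37 and 5.76 in wild-type cells, at 5.82, 5.90 and 5.63 in null cells, at 5.36, 5.55 and 5.47 in null embryoid bodies, and at 7.11, 6.90 and 7.08 in ES cells. The ES arrays were above all others, but every value lay below 8.01. Mir200b rose by 1.57 from the bodies to ES cells (limma adjusted p = 9.42e-07). The other 4 genes differed by -0.21 to 0.18 in this comparison and did not pass, among them Mir200a, whose hairpin neighbours that of Mir200b on chromosome 4. Against null cells Mir200b was higher by 1.24 (adjusted p = 5.25e-06) and Mir200a lower by -0.21 (0.0276, but 0.0662 to 0.108 without null replicate 1 or 2 or ES replicate 1 or 3 or with the housekeeping scaling), and against wild-type cells Mir200b alone passed (2.83-fold, 1.45e-06). Whether these probe sets read the mature form or its precursor is not given in the sources used here, and Mir429 is not analysed here. Among the lung cells 0 of the 5 genes passed with limma, and at an unadjusted p below 0.05 there were 2 higher from wild-type to null cells, 2 lower from null cells to the bodies and 0 between wild-type cells and the bodies.

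The genes whose profiles over the 12 arrays lay nearest to those of the members were sought for Cdh1, Cdh2 and Vim among genes with at least a 4-fold range of group means. Nearest to Cdh1 were Nr0b1 and Mael, known from ES and germ cells, with Lrrc34 and Uty, a gene of the Y chromosome, at root mean square distances of 0.179 to 0.214 in log2 signal after centring. Uty was at 9.64 in ES cells and at 4.97, 5.05 and 5.02 in wild-type cells, null cells and null embryoid bodies. Sex may thus also differ between ES and lung cells, and its part was not tested. Nearest to Cdh2 were the mesothelial factor gene Wt1, Slc43a3, Aldh1l2 and Zbtb20, at 0.262 to 0.303. Wt1 was at 10.81 in wild-type cells, 11.43 in null cells, 10.69 in null embryoid bodies and 7.72 in ES cells. For Vim no near gene is given, since its range of 0.37 lies far under that of every gene compared. The first 2 sets are mostly contrasts of ES cells with the rest, and the genes compared numbered 1292 for each.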

How the data were processed

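The series holds 12 mouse samples in 4 groups of 3, with 1 array per sample. Values were deposited as log2 signals, made by the authors with Affymetrix Expression Console 1.2.1 and RMA per the submitters' processing notes; RMA equalises the distributions of the arrays and can hide a shift shared by most genes. The label protocol names a human array, but the probe sets match the mouse platform used for gene names. Of 35556 probe sets, 21789 had 1 gene, 1621 several and 12146 none; the first were used, with the brightest probe set per gene. For arrays no depth applies, and their number limits the precision. No detection calls were used, so means below 8.01, the median of all gene values, are called low signal.

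Group means on the 12 arrays were compared in 6 pairs by a linear model with moderated variances (limma 3.58.1, R 4.3.3), with Benjamini-Hochberg adjustment over 19938 genes and a threshold of 0.05. The fit was tested on simulated data with the same spread per gene in all groups. That test does not cover the wider spread of the wild-type arrays (median gene SD 0.213, against 0.0652 to 0.0847 in the other groups). The 10 members and the 9 gene lists were chosen with earlier results of these data known. Named were the members, from each list and comparison up to 3 called genes per direction, by size of difference (a subset is printed; Ap1m2 was chosen for its upstream sequence), and 4 nearest genes for Cdh1, Cdh2 and Vim (not printed for Vim). Alternatives were a fit to the 6 arrays compared, a variance trend with a robust prior, array weights by group, a filter on dim genes, every probe set or the mean of a gene's probe sets, a housekeeping shift, a replicate block and leaving out each array; leaving out all wild-type arrays was added after seeing their spread.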

Additional observations from a re-analysis of the deposited data

How the results depend on the processing

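Of 720 member values that were called and then recomputed under an alternative, 658 kept their direction and their side of the threshold, 62 kept the direction only and 0 reversed; of 510 that were not called, 479 were unchanged in this sense, 19 passed and 12 changed sign. Several alternatives could change only the estimated spread of a member and not its difference, so no reversal was possible in them. They include the fit to the 6 arrays compared, array weights by group, the variance trend and leaving out an array of another group. Each member had 1 probe set, so the probe set alternatives also left its difference unchanged. The tally of reversals is therefore in part set by the design. Counts of genes called moved by more than 1.5 times as follows. With only the 6 arrays compared, 0 members were called between wild-type and null cells and 1 between wild-type cells and null embryoid bodies, and over all genes 588 (2615 with 12 arrays) and 870 (3697), while null cells against null embryoid bodies gave 5464 (1077) and wild-type against ES cells 6250 (9394). With array weights by group these comparisons gave 1 and 2 members, and 1531, 1915 and 5364 genes. The housekeeping shift gave 2534 genes between null cells and bodies, and leaving out all wild-type arrays, chosen after seeing the data, 5058. Leaving out 1 array at a time gave 0 to 5 members and 1335 to 5435 genes from wild-type to null cells, 1 to 2 members and 390 to 2676 genes from null cells to bodies, and 2 to 6 members and 2026 to 6496 genes from wild-type cells to bodies. The signs that turned belonged to differences that were not called, except for Ctnnb1. The housekeeping shift gave -0.075 for Twist2 between wild-type and null cells, 0.16 for Snai1 between null cells and bodies and -0.023 for Ctnnb1 between bodies and ES cells. Without single arrays Cdh2 ranged from -0.021 to 0.44 and Twist2 from -0.015 to 0.23 between wild-type and null cells, Cdh2 from -0.32 to 0.14 between wild-type cells and bodies, and between null cells and bodies Cdh1 from -0.032 to 0.051, Epcam from -0.042 to 0.11, Zeb1 from -0.016 to 0.029 and Twist1 from -0.24 to 0.22. Where no value above names a cause, the cause was not tested. Same-numbered arrays did not deviate together: of 18 pairs 3 correlated above 0.1, from -0.26 to 0.23, and 4 of 12 arrays correlated best with their own number. With the replicate block 3, 2, 3, 7, 9 and 8 members were called in the 6 comparisons, against 3, 2, 4, 9, 9 and 8 without it; the calls it ended were Zeb2 between wild-type cells and bodies (adjusted p = 0.0510) and Snai1 and Twist2 between null and ES cells (0.0531 and 0.0602). Signals near or below 8.01, such as those of Cdh1, Epcam and Mir200b in lung cells, limit what a difference there can show.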
